A study of Mus musculus with 6 samples.

Results

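The fatty acid uptake and oxidation genes are 33 genes that bring fatty acids into the heart muscle cell, move them into its mitochondria, oxidise them and set the rate of doing so. They were found by symbol in the annotation of the array, and 32 of the 33 were measured, each by 1 feature, among 22206 features with 19505 different symbols. Expression of Esrra, which encodes the nuclear receptor ERR alpha, was not analysed here. Each heart was taken whole and its RNA hybridised to a Clariom S array for mouse transcripts, with 2 hearts per group, in a study of turning cardiac fibroblasts into muscle cells in the infarcted heart. TTg hearts had the genotype Tcf21iCre/Tomato/MGTH2A and were taken 3 months after myocardial infarction. Ctrl hearts had the genotype Tcf21iCre/Tomato and were taken 3 months or 2 months after infarction. All 3 groups thus carried the Cre and the Tomato reporter, and all hearts came from male mice whose left coronary artery had been ligated at 8 weeks of age. Tcf21 is expressed in cardiac fibroblasts, so the Cre is aimed at that lineage and not at the muscle cells that use the genes described here. MGTH2A is a joined transgene for Gata4, Mef2c, Hand2 and Tbx5, transcription factors of the developing heart. When the Cre was induced is not given in the sources used here. Mice with an ejection fraction above 45% on day 2 had been removed, so every group is a selection of the operated mice.

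The adult heart draws most of its energy from fatty acids. Lipoprotein lipase frees them from triglyceride in the blood, transporters carry them across the cell membrane, and the carnitine shuttle takes long chains into the mitochondrion, where beta oxidation shortens them step by step and passes electrons to the respiratory chain. Malonyl-CoA blocks entry into the shuttle, and the nuclear receptor PPAR alpha with its coactivators drives transcription of much of the pathway. In failing hearts the transcripts of this pathway are known to be low.

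Promoter sequences are shown for 4 of the genes. The RefSeq promoter table (GRCm38.p6) held windows of 300 bases, reaching from 250 bases before to 50 bases after the start of transcription, for 27 of the 33 genes, in 30 windows. Each motif was searched on both strands by its exact letters, so sites with other letters or outside the windows were not found. The core AGGTCA, shared by many nuclear receptors, was present in 8 of the 30 windows, which belong to Acacb, Acadm, Acadvl, Cd36, Echs1, Plin5 and Ucp3, and in 16.3% of all 32851 windows of the table. Repeats of that core spaced by a base, the DR1 element that PPAR alpha binds with RXR, were present in 0 of the 30 windows and in 0.0396% of all windows. At so low a share, 0 of 30 does not show that these genes lack such elements. The letters TNAAGGTCA, bound by ERR alpha and containing the core, were present in 0 of the 30 windows and in 1.28% of all windows. The core of the binding site of NRF1, a regulator of respiratory chain genes, is GCGCNTGCG. It was present in 4 of the 30 windows, those of Acadm, Esrra, Etfdh and Ppara, and in 6.31% of all windows. The windows of Etfdh (chr3:79628718-79629017, minus strand), Acadm (chr3:153944594-153944893, minus strand) and Ppara (chr15:85735526-85735825, plus strand) are printed because they hold the NRF1 core in measured genes of 3 roles. The window of Hadha (chr5:30154931-30155230, minus strand) is printed because it shares 228 bases with that of Hadhb (chr5:30155003-30155302, plus strand). Capitals mark the NRF1 core and, in Acadm, also the first match of the window, which is AGGTCA on the opposite strand.
Etfdh: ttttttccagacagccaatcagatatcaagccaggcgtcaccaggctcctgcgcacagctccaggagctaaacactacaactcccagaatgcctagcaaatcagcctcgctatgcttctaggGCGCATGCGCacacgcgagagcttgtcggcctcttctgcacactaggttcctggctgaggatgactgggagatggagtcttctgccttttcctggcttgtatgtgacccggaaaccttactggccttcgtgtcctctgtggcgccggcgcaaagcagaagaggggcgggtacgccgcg
Acadm: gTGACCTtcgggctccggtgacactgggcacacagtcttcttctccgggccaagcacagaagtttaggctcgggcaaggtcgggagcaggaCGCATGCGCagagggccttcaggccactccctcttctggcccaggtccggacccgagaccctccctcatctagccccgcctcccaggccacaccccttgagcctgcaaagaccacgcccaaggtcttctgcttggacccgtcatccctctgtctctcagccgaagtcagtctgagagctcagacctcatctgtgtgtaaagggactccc
Ppara: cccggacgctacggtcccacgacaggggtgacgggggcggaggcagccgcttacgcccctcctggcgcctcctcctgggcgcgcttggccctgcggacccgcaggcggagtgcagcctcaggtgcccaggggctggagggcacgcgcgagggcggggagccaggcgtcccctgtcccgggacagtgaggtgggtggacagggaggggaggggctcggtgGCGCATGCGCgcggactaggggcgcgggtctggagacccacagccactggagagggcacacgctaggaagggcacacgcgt
Hadha: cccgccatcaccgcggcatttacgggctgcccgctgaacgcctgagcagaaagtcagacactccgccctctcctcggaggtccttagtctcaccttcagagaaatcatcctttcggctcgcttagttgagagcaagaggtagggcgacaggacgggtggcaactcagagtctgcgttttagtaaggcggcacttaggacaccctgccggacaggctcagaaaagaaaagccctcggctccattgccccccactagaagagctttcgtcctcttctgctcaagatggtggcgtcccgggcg
The match begins 128 bases before the start in Etfdh and 31 bases before it in Ppara, and in Acadm the NRF1 core begins 159 bases before the start. Hadha and Hadhb, whose starts lie 273 bases apart on opposite strands, encode the subunits of 1 enzyme complex.

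Values below are the deposited log2 values, and each difference is a difference of group means with the SE of the limma fit (n = 2 hearts per group). The highest value on the arrays is 19.93, and features at 19 or more are near the top of the scale. All 32 genes lay at or above 3.65, the 30th percentile of mean signal, on every array. Medians of all features were 4.91 to 5.0 per array, and the arrays of a pair correlated across features at 0.984 to 0.989. Heart muscle structure genes, which mark the labelled tissue, were high on every array, with medians over 22 genes of 18.34 to 18.61. Ctrl 2-month replicate 1 stood apart in skeletal muscle and fat markers, with Mylpf at 8.47 there and 2.77 to 3.95 on the other arrays, and Adipoq at 10.34 there and 3.98 to 4.83 on the others. Over the whole lists, the median deviation from the mean of all arrays was 1.96 there and -0.47 to -0.18 on the others for 12 skeletal muscle genes, and 1.14 there and -0.34 to -0.12 on the others for 8 white fat genes, 2 of which were dim on every array. Ctrl 3-month replicate 2 stood apart in the atrial gene Myl7, at 3.45 there and 9.73 to 12.39 on the others. The same held for Myl4, at 5.90 there and 14.39 to 16.23 on the others, and Sln, at 5.53 and 12.73 to 14.45. Nppa, Bmp10 and Stard10 of the same list did not set this heart apart. Over the 6 atrial genes the median deviation was -4.74 there and 0.39 to 2.25 on the others. In RNA of a whole heart, fewer cells of a type and less RNA per cell cannot be told apart.

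The first comparison, TTg against Ctrl hearts at 3 months, asks what differed with the transgene at the same time after infarction. Of the 32 fatty acid genes, 28 had a higher mean in TTg hearts, while Hadh, Pdk4 and Angptl4 had a lower mean and Fabp3 was at the top of the scale everywhere. The median difference was 0.59, against 0.01 over all features, of which 50.9% had a higher and 48.3% a lower mean in TTg hearts. No fatty acid gene passed the test (limma, adjusted p under 0.05), and the share of all features that passed was 0.0045%. At an unadjusted p under 0.05, 2 of the 32 were higher (Slc27a1 and Etfdh) and 0 were lower, against 3.35% and 4.11% of all features. That count moved with the processing, to 11 of 32 with the replicate number as a block, against 9.53% of all features, 9 with arrays centred on heart muscle structure genes, against 7.75%, and 7 with arrays centred on their medians, against 7.65%. It was 3 with quantile normalization, against 7.77%, and 1 with dim features left out, against 8.14%. In 13 genes both TTg values lay above both Ctrl values, against 19.1% of all features, and in 1 gene, Pdk4, both lay below, against 19.3%. With 2 hearts against 2, an exact permutation test could not go below p = 0.333.

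The size of this difference depended on which hearts entered it. Ctrl 3-month replicate 1 had the lowest value of all 6 arrays in 23 of the 31 genes that varied, against 18.3% of all features. TTg replicate 2 had the highest value in 20 of the 31, against 17.0% of all features. Replicate 2 lay above replicate 1 in 27 of the 31 genes in TTg hearts, in 28 in Ctrl 3-month hearts and in 25 in Ctrl 2-month hearts, against 48.5%, 47.9% and 51.9% of all features. The labels do not say that equal numbers share anything. Between the hearts of a group, 12 of the 31 genes differed by at least 2-fold in Ctrl 3-month hearts, against 6.48% of all features, and 5 of the 31 did so in TTg hearts, against 3.98%. Without Ctrl 3-month replicate 1 the median difference of the 32 genes was 0.18, with 21 higher and 10 lower. Leaving out the other Ctrl 3-month heart gave 1.08, with 27 higher and 4 lower. At an unadjusted p under 0.05, 1 of the 32 passed without Ctrl 3-month replicate 1 and 20 passed with replicate 2 of that group left out, against 3.35% and 10.6% of all features. The direction of the median was thus the same with either control heart, and its size was not.

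**Figure D1:**
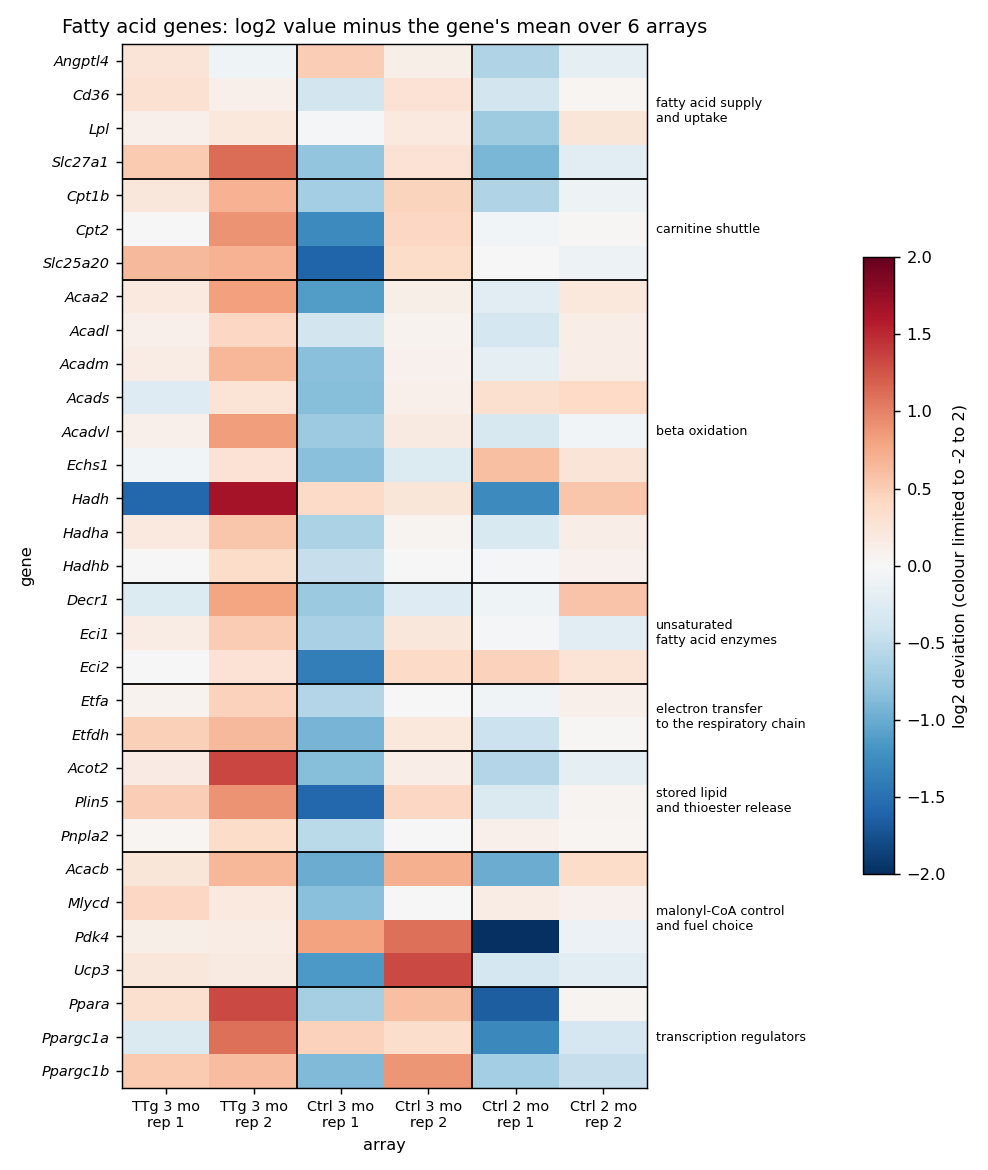
Log2 deviation of 31 genes (rows, grouped by role) from each gene's mean over the 6 arrays (columns), with TTg 3-month, Ctrl 3-month and Ctrl 2-month arrays from left to right. Ctrl 3-month replicate 1 is lowest in 23 of the 31 genes and TTg replicate 2 is highest in 20 of them. Fabp3, at the top of the scale on every array, is left out.

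Genes of supply and uptake differed little between the 3-month groups, apart from Slc27a1. Of the 5, 3 had a higher mean and 1 a lower mean in TTg hearts, and the median difference was 0.08, or -0.03 without Ctrl 3-month replicate 1. These medians count Fabp3, which could not differ, as 0. With features near the top of the scale left out, Fabp3 among them, the median was 0.16. Slc27a1 encodes FATP1, a transporter that brings fatty acids across the membrane and activates them. It was at 14.05 and 14.65 in TTg hearts, 12.75 and 13.82 in Ctrl 3-month hearts, and 12.62 and 13.31 in Ctrl 2-month hearts. Both TTg hearts were above all 4 control hearts, as also in Slc25a20 and Etfdh, and narrowly in Plin5, Acot2, Acadm, Hadha and Mlycd. The share of all features with this pattern was not counted. For Slc27a1 the difference from Ctrl 3-month hearts was 1.07 ± 0.43, or 2.09-fold, with an adjusted p of 0.661. That difference was 0.53 without Ctrl 3-month replicate 1. Cd36, the main fatty acid translocase of the muscle cell, was at 17.59 and 17.39 in TTg hearts, 16.91 and 17.57 in Ctrl 3-month hearts, and 16.92 and 17.33 in Ctrl 2-month hearts. Its groups at 3 months overlapped. Lpl, which encodes lipoprotein lipase, was at 18.20 and 18.30 in TTg hearts, 18.06 and 18.29 in Ctrl 3-month hearts, and 17.39 and 18.33 in Ctrl 2-month hearts. Angptl4, a secreted inhibitor of that lipase, was at 4.67 and 4.34 in TTg hearts, 4.91 and 4.53 in Ctrl 3-month hearts, and 3.82 and 4.24 in Ctrl 2-month hearts. Its values were near the dim range, where background weighs on a difference. Fabp3, the fatty acid binding protein of heart muscle, was at 19.93 on all 6 arrays, so no difference could be measured.

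All 3 genes of the carnitine shuttle had a higher mean in TTg hearts than in Ctrl hearts at 3 months, with a median difference of 0.88. That median was 0.04 without Ctrl 3-month replicate 1 and 1.72 with replicate 2 of that group left out. Slc25a20 encodes the carrier that swaps acylcarnitine for carnitine across the inner membrane. It was at 13.60 and 13.64 in TTg hearts, 11.35 and 13.31 in Ctrl 3-month hearts, and 12.93 and 12.84 in Ctrl 2-month hearts. Ctrl 3-month replicate 1 lay far below the other 5 hearts, which were within 12.84 to 13.64. Its difference of 1.29 ± 0.56, or 2.45-fold, was the largest of the 32 genes (adjusted p = 0.666), and it was 0.31 without that heart. Cpt2, the enzyme that rebuilds acyl-CoA inside the mitochondrion, was at 10.76 and 11.67 in TTg hearts, 9.50 and 11.18 in Ctrl 3-month hearts, and 10.72 and 10.79 in Ctrl 2-month hearts. The 3-month groups overlapped, and the difference of 0.88 ± 0.55 (adjusted p = 0.775) was 0.04 without Ctrl 3-month replicate 1. Cpt1b, the rate-setting muscle enzyme that malonyl-CoA inhibits, was at 15.94 and 16.41 in TTg hearts, 15.03 and 16.16 in Ctrl 3-month hearts, and 15.10 and 15.61 in Ctrl 2-month hearts.

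Beta oxidation genes had a higher mean in TTg hearts in 8 of 9 cases, with a median difference of 0.67. In 5 of the 9 both TTg values exceeded both Ctrl 3-month values, against 19.1% of all features. The median was 0.29 without Ctrl 3-month replicate 1, and 0.39 when TTg replicate 2 was left out. Acaa2, the thiolase that cuts off acetyl-CoA, was at 17.04 and 17.67 in TTg hearts, 15.73 and 16.96 in Ctrl 3-month hearts, and 16.62 and 17.06 in Ctrl 2-month hearts. Its difference was 1.01 ± 0.44, or 2.01-fold (adjusted p = 0.666), and 0.40 without Ctrl 3-month replicate 1. The chain-length dehydrogenases carry out the opening step. Acadm, for medium chains, was at 13.77 and 14.29 in TTg hearts, 12.79 and 13.71 in Ctrl 3-month hearts, and 13.45 and 13.76 in Ctrl 2-month hearts. Acadvl, for very long chains, was at 16.15 and 16.87 in TTg hearts, 15.31 and 16.22 in Ctrl 3-month hearts, and 15.72 and 15.98 in Ctrl 2-month hearts. Acadl, for long chains, was at 17.18 and 17.48 in TTg hearts, 16.71 and 17.15 in Ctrl 3-month hearts, and 16.72 and 17.20 in Ctrl 2-month hearts. Acadm and Acadl did not overlap between the 3-month groups, whereas Acadvl did. Acads, for short chains, was at 10.18 and 10.71 in TTg hearts, 9.59 and 10.54 in Ctrl 3-month hearts, and 10.76 and 10.84 in Ctrl 2-month hearts. It was highest in the hearts at 2 months.

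The subunits of the trifunctional protein, whose genes share the promoter window printed above, both had a higher mean in TTg hearts. Hadha was at 17.98 and 18.33 in TTg hearts, 17.14 and 17.84 in Ctrl 3-month hearts, and 17.47 and 17.92 in Ctrl 2-month hearts. Hadhb was at 18.27 and 18.63 in TTg hearts, 17.80 and 18.27 in Ctrl 3-month hearts, and 18.23 and 18.34 in Ctrl 2-month hearts. In both genes Ctrl 3-month replicate 1 was the lowest heart and TTg replicate 2 the highest. Echs1, the short-chain hydratase, was at 15.10 and 15.44 in TTg hearts, 14.32 and 14.88 in Ctrl 3-month hearts, and 15.76 and 15.41 in Ctrl 2-month hearts. Both Ctrl 3-month hearts were below the other 4. Hadh, the short-chain dehydrogenase, was at 13.82 and 17.05 in TTg hearts, 15.78 and 15.64 in Ctrl 3-month hearts, and 14.12 and 15.95 in Ctrl 2-month hearts. The TTg hearts of Hadh were the lowest and the highest of the 6, a gap of 3.23, the widest within a pair among the 31 genes.

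Enzymes for unsaturated chains and for electron transfer followed the same direction in their means at 3 months. All 3 genes for unsaturated chains were higher, with a median difference of 0.64, which was 0.10 without Ctrl 3-month replicate 1, and in each the groups overlapped. Decr1, the dienoyl-CoA reductase, was at 13.84 and 14.91 in TTg hearts, 13.38 and 13.86 in Ctrl 3-month hearts, and 14.03 and 14.68 in Ctrl 2-month hearts. Eci2, an isomerase, was at 13.66 and 13.96 in TTg hearts, 12.29 and 14.05 in Ctrl 3-month hearts, and 14.14 and 13.94 in Ctrl 2-month hearts. Eci1, also an isomerase, ranged from 9.93 to 11.08 over the 6 hearts. Etfdh passes electrons from beta oxidation to ubiquinone, and Etfa is a subunit of the flavoprotein that supplies it. Etfdh was at 17.05 and 17.22 in TTg hearts, 15.64 and 16.77 in Ctrl 3-month hearts, and 16.13 and 16.59 in Ctrl 2-month hearts. Both TTg hearts were above all 4 control hearts. The difference from Ctrl 3-month hearts was 0.93 ± 0.39, or 1.91-fold (adjusted p = 0.665), and 0.37 without Ctrl 3-month replicate 1. Etfa was at 16.30 and 16.70 in TTg hearts, 15.65 and 16.24 in Ctrl 3-month hearts, and 16.16 and 16.34 in Ctrl 2-month hearts. The median of the pair was 0.74, and 0.31 without Ctrl 3-month replicate 1.

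The 3 genes of stored lipid and thioester release were free of overlap at 3 months, against 19.1% of all features, with a median difference of 1.11. That median was 0.29 without Ctrl 3-month replicate 1, 0.53 without TTg replicate 2, and 1.48 to 1.61 without either of the other 3-month hearts. Plin5, a protein of lipid droplets next to mitochondria, was at 9.08 and 9.48 in TTg hearts, 7.01 and 8.99 in Ctrl 3-month hearts, and 8.30 and 8.64 in Ctrl 2-month hearts. Its difference of 1.28 ± 0.58, or 2.43-fold (adjusted p = 0.682), was 0.29 without Ctrl 3-month replicate 1. Acot2, a mitochondrial thioesterase that frees fatty acids from CoA, was at 15.85 and 17.02 in TTg hearts, 14.83 and 15.82 in Ctrl 3-month hearts, and 15.09 and 15.49 in Ctrl 2-month hearts. Both TTg hearts were above all 4 control hearts, TTg replicate 1 only narrowly. The difference was 1.11 ± 0.47, or 2.16-fold (adjusted p = 0.665), and 0.53 without TTg replicate 2. Pnpla2, which encodes the triglyceride lipase ATGL, was at 14.57 and 14.91 in TTg hearts, 14.00 and 14.53 in Ctrl 3-month hearts, and 14.64 and 14.58 in Ctrl 2-month hearts.

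**Figure D2:**
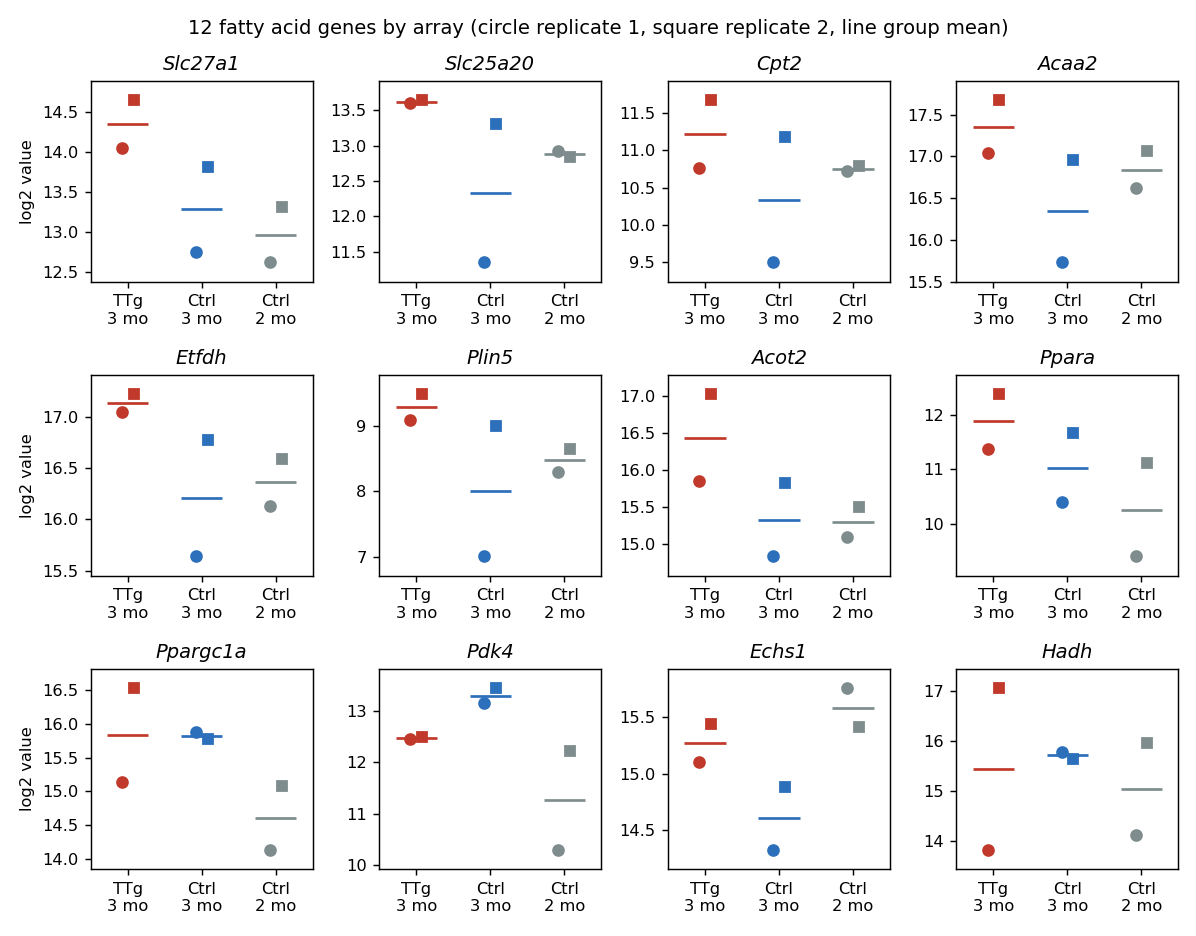
Log2 values of 12 fatty acid genes in each heart, with TTg 3-month hearts left, Ctrl 3-month hearts in the middle and Ctrl 2-month hearts right (circle replicate 1, square replicate 2, line group mean, each panel on its own scale). Slc27a1, Slc25a20 and Etfdh, and narrowly Plin5 and Acot2, have both TTg hearts above all 4 control hearts. Pdk4 is highest in Ctrl 3-month hearts, and the TTg hearts of Hadh are 3.23 apart.

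Genes that govern fuel choice did not share a direction. Their median difference at 3 months was 0.36, and -0.62 without Ctrl 3-month replicate 1. Pdk4 encodes the kinase that shuts off pyruvate dehydrogenase and so favours fatty acids over glucose. It was at 12.46 and 12.49 in TTg hearts, 13.15 and 13.45 in Ctrl 3-month hearts, and 10.29 and 12.23 in Ctrl 2-month hearts. Both TTg hearts lay below both Ctrl 3-month hearts and above both Ctrl 2-month hearts. Mlycd, which breaks down malonyl-CoA, was at 8.12 and 7.90 in TTg hearts, 6.87 and 7.70 in Ctrl 3-month hearts, and 7.85 and 7.80 in Ctrl 2-month hearts. Acacb, which makes malonyl-CoA at the mitochondrion, was at 8.17 and 8.59 in TTg hearts, 6.93 and 8.64 in Ctrl 3-month hearts, and 6.93 and 8.29 in Ctrl 2-month hearts. The enzymes that make and break malonyl-CoA thus both had a higher mean in TTg hearts. Ucp3, a carrier of the inner mitochondrial membrane, was at 7.39 and 7.35 in TTg hearts, 6.02 and 8.48 in Ctrl 3-month hearts, and 6.82 and 6.94 in Ctrl 2-month hearts. Its Ctrl 3-month hearts were the lowest and the highest of the 6.

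The 3 measured regulators overlapped between the 3-month groups, with a median difference of 0.57 that was 0.07 without Ctrl 3-month replicate 1. Ppara, which encodes PPAR alpha, was at 11.38 and 12.38 in TTg hearts, 10.39 and 11.66 in Ctrl 3-month hearts, and 9.40 and 11.11 in Ctrl 2-month hearts. The difference at 3 months was 0.86 ± 0.66, or 1.81-fold (adjusted p = 0.822), and 0.22 without Ctrl 3-month replicate 1. Ppargc1a, which encodes the coactivator PGC-1 alpha, was at 15.14 and 16.53 in TTg hearts, 15.88 and 15.77 in Ctrl 3-month hearts, and 14.13 and 15.08 in Ctrl 2-month hearts. Both Ctrl 3-month values lay between the TTg values. Ppargc1b, its relative PGC-1 beta, was at 10.56 and 10.66 in TTg hearts, 9.16 and 10.92 in Ctrl 3-month hearts, and 9.36 and 9.58 in Ctrl 2-month hearts. The Ctrl 3-month hearts were on either side of the TTg hearts.

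The second comparison, Ctrl hearts at 3 against 2 months, asks what differed with time after infarction without the transgene. The genes split: 13 had a higher mean at 3 months and 18 a lower mean, against 50.5% and 48.8% of all features. The median difference was -0.09, against 0.01 over all features. Beta oxidation genes had a lower mean in 8 of 9 cases, with a median difference of -0.25, and all 3 genes for unsaturated chains were lower, with a median of -0.74. The 3 regulators had a higher mean, with a median of 0.77. Without Ctrl 3-month replicate 1 these medians were 0.12 for beta oxidation, 0.01 for unsaturated chains and 1.41 for the regulators. No fatty acid gene passed the test (limma, adjusted p under 0.05), and 0.0045% of all features did. At an unadjusted p under 0.05, 3 were higher and 1 was lower, against 3.91% and 4.09% of all features. The values of 3 genes lay wholly above (Pdk4, Ppargc1a and Angptl4), against 18.3% of all features, and of 5 wholly below (Acads, Echs1, Decr1, Mlycd and Pnpla2), against 17.4%.

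Pdk4 had the largest difference of the 32 genes with time, 2.04 ± 0.56 or 4.11-fold (adjusted p = 0.492). Leaving out 1 heart at a time gave 1.07 to 3.01. Ppargc1a differed by 1.22 ± 0.50 (2.33-fold, adjusted p = 0.609) and Angptl4 by 0.69 ± 0.28 (1.61-fold, adjusted p = 0.604). Pdk4 and Angptl4 are known targets of PPAR alpha. Ppara itself differed by 0.77 ± 0.66 (adjusted p = 0.805), a difference of opposite sign without Ctrl 2-month replicate 1. On the lower side Echs1 differed by -0.99 ± 0.29 (adjusted p = 0.523) and Eci2 by -0.87 ± 0.52 (adjusted p = 0.715). Acads differed by -0.74 ± 0.36 (adjusted p = 0.667) and Decr1 by -0.74 ± 0.42 (adjusted p = 0.702). The median over the 32 genes depended on the heart left out, at 0.42 without Ctrl 3-month replicate 1 and -0.55 with replicate 2 of that group left out. The part of the skeletal muscle and fat markers of Ctrl 2-month replicate 1 in these values was not tested, and the median without that heart was -0.29.

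The third comparison, TTg hearts at 3 months against Ctrl hearts at 2 months, changes genotype and time together, which cannot be told apart. It uses the same TTg hearts as the first comparison. Of the 32 genes, 28 had a higher mean in TTg hearts and 3 a lower mean (Acads, Echs1 and Eci2), against 52.1% and 47.3% of all features. The median difference was 0.46, against 0.02 over all features. No fatty acid gene and 0% of all features passed the test (limma, adjusted p under 0.05). At an unadjusted p under 0.05, 4 were higher (Slc27a1, Ppara, Ppargc1a and Acot2) and 0 were lower, against 4.3% and 5.41% of all features. Both TTg values lay above both Ctrl values in 18 genes, against 21.2% of all features, and below them in 1 gene, Acads, against 18.9%. Without Ctrl 2-month replicate 1, or without TTg replicate 2, 0 of the 32 passed an unadjusted p under 0.05, against 5.96% and 5.72% of all features.

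Regulators led this comparison, with all 3 higher in mean and a median of 1.23, which was 0.77 without Ctrl 2-month replicate 1. Ppara differed by 1.63 ± 0.66 (3.08-fold, adjusted p = 0.505), Ppargc1a by 1.23 ± 0.50 (2.35-fold, adjusted p = 0.504) and Ppargc1b by 1.14 ± 0.52 (2.20-fold, adjusted p = 0.543). With 1 heart left out, the difference of Ppara was 0.77 to 2.48, the lower value without Ctrl 2-month replicate 1. That of Ppargc1a was 0.54 to 1.93, the lower value without TTg replicate 2, and that of Ppargc1b was 1.03 to 1.25. Among the genes for the steps themselves, Slc27a1 differed by 1.39 ± 0.43 (2.61-fold, adjusted p = 0.410). Its difference kept within 1.04 to 1.73 whichever heart was left out. Acot2 differed by 1.15 ± 0.47 (2.21-fold, adjusted p = 0.512), Cpt1b by 0.82 ± 0.41 (1.77-fold, adjusted p = 0.576) and Plin5 by 0.81 ± 0.58 (1.75-fold, adjusted p = 0.707). Without TTg replicate 2 the difference of Acot2 was 0.56. Pdk4 differed by 1.22 ± 0.56 (2.32-fold, adjusted p = 0.552), and by 0.25 to 2.19 with 1 heart left out. Without Ctrl 2-month replicate 1, the heart with skeletal muscle and fat markers, the median of the 32 genes was 0.26, with 25 higher and 6 lower.

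**Figure D3:**
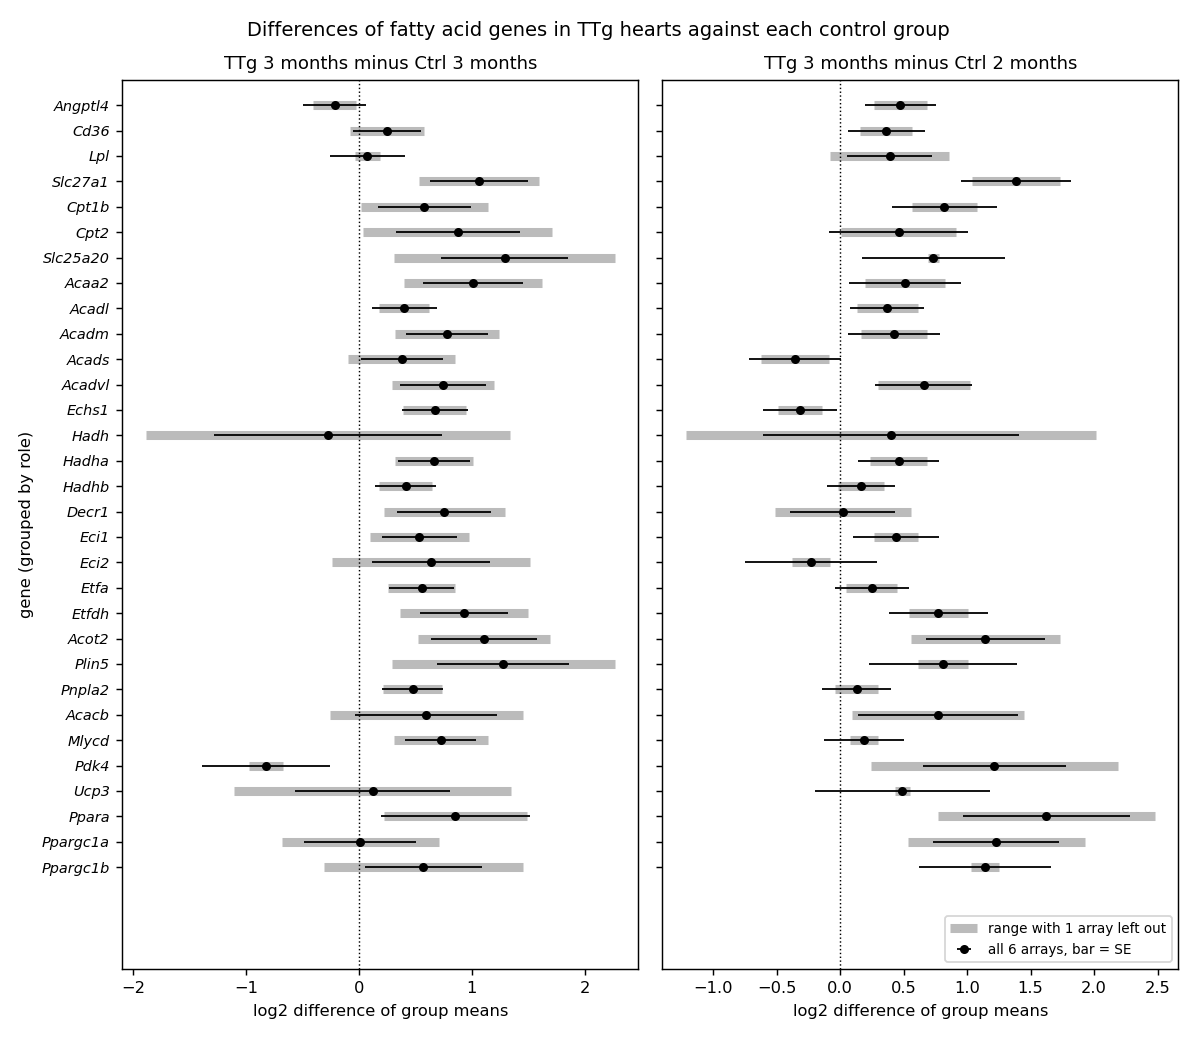
Differences of group means (log2) for 31 fatty acid genes in TTg 3-month hearts against Ctrl 3-month hearts (left) and Ctrl 2-month hearts (right). Points use all 6 arrays with bars of 1 SE, and grey bars span the values with 1 array left out. The comparisons share the TTg hearts, and of the genes shown 28 lie above 0 on the left and 28 on the right.

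Further genes of the pathway were drawn from lists of 8 kinds, of which 107 genes were measured. Of these, 79 had a higher mean in TTg hearts than in Ctrl 3-month hearts and 28 a lower mean, with a median of 0.34, and 0 passed the test. At an unadjusted p under 0.05, 7 were higher and 2 lower, against 3.35% and 4.11% of all features. A further list of oxidation genes, mostly but not only mitochondrial, was higher in 17 of 18 cases (median 0.41). Peroxisomal oxidation genes of a separate list were higher in 11 of 12 (median 0.40), carnitine genes in 6 of 8 (median 0.61) and ketone body genes in 4 of 4 (median 0.36). Triacylglycerol storage and release genes were higher in 12 of 18 (median 0.31), uptake and activation genes in 8 of 12 (median 0.33), fuel choice genes in 8 of 14 (median 0.22) and transcription regulators in 14 of 22 (median 0.15). The same hearts entered every list, so the lists are not independent of the fatty acid genes above. The median deviation of the 107 genes from their means over all arrays was -0.27 in Ctrl 3-month replicate 1 and 0.06 in replicate 2. For the mostly mitochondrial list these values were -0.49 and 0.09, and for the peroxisomal list -0.49 and 0.01.

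From each list the 2 genes with the largest absolute difference at 3 months are given. Acad11, an acyl-CoA dehydrogenase, was at 12.31 and 12.35 in TTg hearts, 10.67 and 11.64 in Ctrl 3-month hearts, and 11.89 and 11.73 in Ctrl 2-month hearts. Its difference from Ctrl 3-month hearts was 1.18 ± 0.34 (adjusted p = 0.661). Hsd17b4, a bifunctional enzyme of peroxisomal oxidation, differed by 1.18 ± 0.44 (adjusted p = 0.661), and Abcd3, a peroxisomal transporter, by 0.72 ± 0.35 (adjusted p = 0.700). Cpt1a, the liver form of the shuttle's rate-setting enzyme, was at 9.27 and 9.28 in TTg hearts, 7.96 and 8.69 in Ctrl 3-month hearts, and 8.33 and 9.16 in Ctrl 2-month hearts, a difference of 0.95 ± 0.36 at 3 months (adjusted p = 0.661). Both TTg hearts were above all 4 control hearts. Pdp2, a phosphatase that turns pyruvate dehydrogenase back on against Pdk4, differed by 1.42 ± 0.53 (adjusted p = 0.661), and Pdp1, its relative, by 0.90 ± 0.45 (adjusted p = 0.700). Bdh1, which oxidises a ketone body, differed by 0.77 ± 0.37 (adjusted p = 0.697). On the lower side, Hif1a, the oxygen-sensitive factor that favours glycolysis, was at 12.33 and 11.78 in TTg hearts, 13.66 and 12.97 in Ctrl 3-month hearts, and 12.29 and 12.59 in Ctrl 2-month hearts, a difference of -1.26 ± 0.33 at 3 months (adjusted p = 0.655). Gpihbp1, which anchors lipoprotein lipase on capillary walls, differed by -0.56 ± 0.23 (adjusted p = 0.661).

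The others chosen in this way include Slc25a29, a mitochondrial carrier, which differed by 0.86 ± 0.32 (adjusted p = 0.661), and Mmut, the methylmalonyl-CoA mutase, by 0.97 ± 0.52 (adjusted p = 0.724). Acsl6, an acyl-CoA synthetase, differed by 0.69 ± 0.37 (adjusted p = 0.724). Slc25a29, at 3.81 to 5.23 over the 6 hearts, and Acsl6, at 4.39 to 5.77, had values near the dim range, where background weighs on a difference. Dgat2, which makes triglyceride, differed by 0.88 ± 0.58 (adjusted p = 0.782), and Agpat3, an acyltransferase, by 0.94 ± 0.39 (adjusted p = 0.665). Rxrg, a partner of PPAR receptors, differed by 0.80 ± 0.61 (adjusted p = 0.819), and Slc16a1, the lactate and ketone transporter MCT1, by 0.45 ± 0.37 (adjusted p = 0.828). In all genes chosen in this way with a higher mean in TTg hearts, except Acsl6, Ctrl 3-month replicate 1 lay below replicate 2. Mmut was at 12.38 and 12.28 in TTg hearts and 10.52 and 12.21 in Ctrl 3-month hearts. Rxrg was at 11.93 and 12.22 in TTg hearts and 10.35 and 12.20 in Ctrl 3-month hearts.

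Other gene lists were set beside the fatty acid genes heart by heart. The deviation of a list on an array is the median, over its genes, of the log2 value minus the gene's mean over all arrays. For the 32 fatty acid genes it was 0.15 and 0.59 in TTg hearts, -0.73 and 0.20 in Ctrl 3-month hearts, and -0.32 and 0.05 in Ctrl 2-month hearts. For 32 genes of oxidative phosphorylation and the TCA cycle it was 0.04 and 0.19 in TTg hearts, -0.45 and 0.01 in Ctrl 3-month hearts, and 0.08 and 0.13 in Ctrl 2-month hearts. Both lists were lowest in Ctrl 3-month replicate 1 and highest in TTg replicate 2. They parted against Ctrl 2-month hearts. There the median difference in TTg hearts was -0.01 for oxidative phosphorylation and TCA cycle genes (15 higher, 16 lower) and 0.46 for the fatty acid genes (28 higher, 3 lower). For 22 heart muscle structure genes, 9 of which reached 19, it stayed within -0.01 to 0.09 on all arrays. Fibroblast and matrix genes, 17 in number, were at -0.34 and -1.29 in TTg hearts, 1.05 and 0.08 in Ctrl 3-month hearts, and 1.09 and -0.45 in Ctrl 2-month hearts. Their mean level was 9.45 and 8.40 in TTg hearts, 11.22 and 10.01 in Ctrl 3-month hearts, and 10.93 and 9.46 in Ctrl 2-month hearts. Macrophage and monocyte genes, 15 in number, were at -0.65 and -0.97 in TTg hearts, 1.16 and 0.02 in Ctrl 3-month hearts, and 0.99 and -0.01 in Ctrl 2-month hearts. Their mean level was 7.08 and 6.62 in TTg hearts, 8.86 and 7.56 in Ctrl 3-month hearts, and 8.51 and 7.70 in Ctrl 2-month hearts. The control hearts in which the fatty acid genes were lowest were those in which both of these lists were highest. Of the fibroblast and matrix genes 16 of 17 had a lower mean in TTg than in Ctrl 3-month hearts, with a median of -1.29, and of the macrophage and monocyte genes 15 of 15, with a median of -1.34. Fetal and stress genes of cardiomyocytes, 10 in number and including Nppb, Myh7 and Acta1, were at -0.03 and -1.77 in TTg hearts, 1.86 and 0.39 in Ctrl 3-month hearts, and 0.19 and -0.39 in Ctrl 2-month hearts. As a list median this was highest in Ctrl 3-month replicate 1 and lowest in TTg replicate 2, the hearts in which the fatty acid genes were lowest and highest. Single genes departed from it, as Myh7 and Acta1 were highest in Ctrl 3-month replicate 2, and 4 of the 10 genes reached 19. All 10 genes had a lower mean in TTg than in Ctrl 3-month hearts, with a median of -2.30. In 7 of them the groups did not overlap, against 19.3% of all features, and 0 passed the test. The part of these 3 lists in the differences of the fatty acid genes was not tested. With each array centred on its heart muscle structure genes, the median difference of the fatty acid genes between the 3-month groups was 0.68. The centring used the median of those structure genes, 18.34 to 18.61 per array, and 9 of them reached 19, near the top of the scale. It was not tested as a measure of muscle content or as a correction for it.

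**Figure D4:**
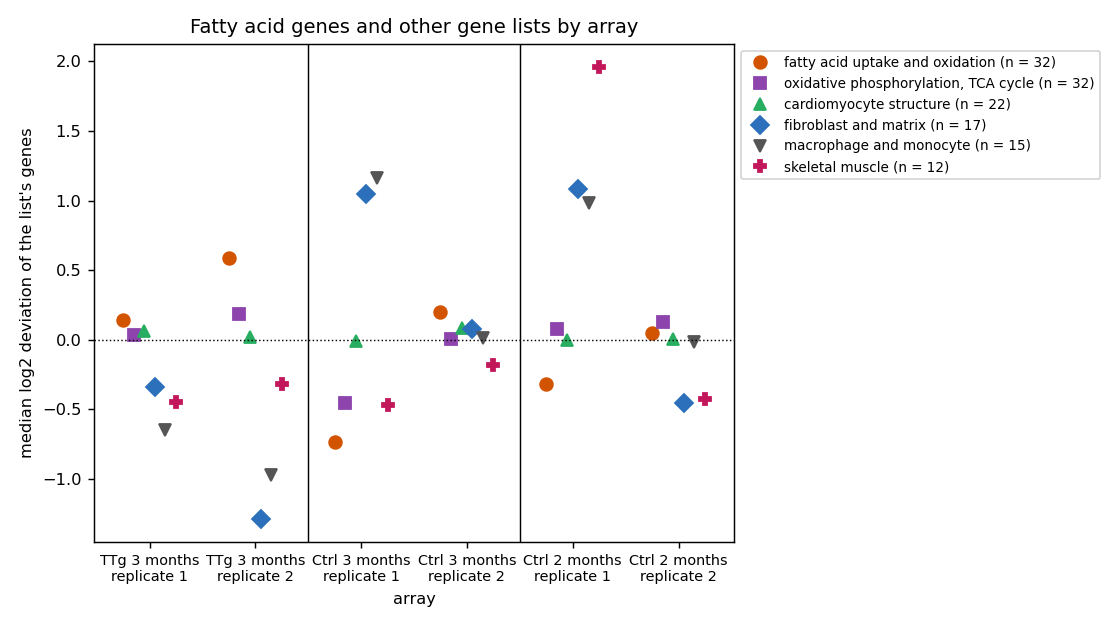
Median log2 deviation of the genes of 6 lists (y axis) in each heart (x axis), with TTg 3-month hearts left, then Ctrl 3-month and Ctrl 2-month hearts. The fatty acid genes are lowest, at -0.73, in Ctrl 3-month replicate 1, where the macrophage list is at 1.16, and highest, at 0.59, in TTg replicate 2, where the fibroblast list is at -1.29.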

How the data were processed

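Log2 values were deposited by the authors, 1 per array feature. Transcriptome Analysis Console 4.0 is named per the submitters' processing notes, and the background correction, summary and normalization method are not given in the sources used here. The values were used as deposited. The number of arrays limits the precision, and no depth applies. Per the labels, each array took 100 ng of RNA whose integrity number exceeded 7.0, and the design text calls the hearts independent biological replicates.

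Group means were fitted over the 6 arrays together with limma 3.58.1 in R 4.3.3 (3 residual and 4.13 prior degrees of freedom). Tests were two-sided, with Benjamini-Hochberg adjustment over all 22206 features and a threshold of 0.05, in 3 comparisons. The fit was tested on simulated data. Of the 22206 features, 2634 had no symbol. The genes and lists were chosen with earlier results of these data known, and the promoters printed were chosen after the values were seen. Differences with SE and adjusted p are given for genes past the threshold, for the 8 genes with the largest absolute difference in each comparison, and for the 2 largest of each further pathway list at 3 months. Alternatives covered the variance prior, normalization, filters, a replicate block, the threshold, the arrays fitted and each array left out.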

Additional observations from a re-analysis of the deposited data

How the results depend on the processing

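In 16 alternatives to each of the 3 comparisons, no fatty acid gene passed an adjusted p under 0.05, with limma throughout, and the smallest adjusted p of any of them was 0.0738, for Pdk4 in Ctrl 3-month against Ctrl 2-month hearts without Ctrl 2-month replicate 2. Of 384 values of the 24 gene differences named, 382 kept their direction. Of 384 medians of the role groups, 363 stayed within 1 SD of the value reported and 21 moved further, all with an array left out. The replicate block, the priors, the filters and the arrays of the group not compared cannot change a gene's difference. Much of this agreement was therefore fixed in advance. Ctrl 3-month minus Ctrl 2-month, Eci2 was at 0.01 without Ctrl 3-month replicate 1 (-1.75 to 0.01 over the arrays left out), and Ppara was at -0.085 without Ctrl 2-month replicate 1 (-0.085 to 1.63). With 1 array left out, the lone heart of a group is assumed to vary like the others. The median difference of the fatty acid genes with 1 array left out was 0.18 to 1.08 for TTg against Ctrl 3-month hearts, -0.55 to 0.42 for Ctrl 3-month against Ctrl 2-month hearts and 0.26 to 0.69 for TTg against Ctrl 2-month hearts.

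At an unadjusted p under 0.05 with at least a 2-fold difference, 1, 2 and 4 fatty acid genes passed in TTg against Ctrl 3-month, Ctrl 3-month against Ctrl 2-month and TTg against Ctrl 2-month hearts, and 666, 608 and 878 of all features. Over all features in TTg against Ctrl 3-month hearts, 1 passed in the fit reported, 11 with a replicate block, 2 with the groups compared fitted alone, and 0 to 2 with 1 array left out. In Ctrl 3-month against Ctrl 2-month hearts 1 passed, but 0 with an intensity trend, with quantile normalization or without dim features, and 0 to 6 with 1 array left out. In TTg against Ctrl 2-month hearts 0 passed, but 5 with the replicate block, 1 with a robust prior, 1 with centring on heart muscle structure genes, 1 without features near the top of the scale, and 0 to 22 with 1 array left out. The cause of these changes was not tested. Replicate numbers are not stated to pair hearts. Deviations of same-numbered arrays correlated at 0.12 to 0.136, and under the block the smallest adjusted p of a fatty acid gene was 0.248, 0.283 and 0.110 in the 3 comparisons. The count of fatty acid genes at an unadjusted p under 0.05 (limma) was 11, 6 and 9 under the block. The share of all features was then 9.53%, 9.37% and 11.6%. In the fits reported the count was 2, 4 and 4, against 7.47%, 8.0% and 9.71% of all features. With 1 array left out, both the counts and the shares moved as well. Signal at the top of the scale limits Fabp3, and dim signal limits Angptl4 and, among the further pathway genes, Slc25a29 and Acsl6.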

Other observations

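Of 14 clock genes, chosen after their values were seen, 12 differed by at least 2-fold between the TTg hearts, against 3.98% of all features. Between the Ctrl 3-month hearts 4 did so, against 6.48%, and between the Ctrl 2-month hearts 2 did so, against 7.67%. Their gaps on the log2 scale were 0.07 to 5.11, 0.09 to 1.87 and 0.02 to 2.35 in these groups. Cry1 and Clock were the 2 clock genes under 2-fold in TTg hearts. Of the 31 fatty acid genes that varied, 5 differed by at least 2-fold between the TTg hearts, Hadh among them. Dbp, a clock output factor, was at 12.81 and 17.92 in TTg hearts, 16.11 and 15.87 in Ctrl 3-month hearts, and 17.51 and 17.61 in Ctrl 2-month hearts. Arntl, which encodes the core clock factor BMAL1, was at 9.74 and 5.19 in TTg hearts, 8.49 and 8.94 in Ctrl 3-month hearts, and 5.92 and 5.94 in Ctrl 2-month hearts. TTg replicate 1 was thus low in Dbp and high in Arntl, and TTg replicate 2 the reverse. The time of day at which hearts were taken is not given in the sources used here, and the part of the clock in the values of the fatty acid genes was not tested.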
